A study of Mus musculus with 44 samples.

Results

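Transcripts of 10 genes of the Hippo pathway were followed in mouse ovarian follicles exposed to perfluorononanoic acid (PFNA), a per- and polyfluoroalkyl substance. The genes were taken by symbol from both deposited gene tables: the co-activators Yap1 and Wwtr1, their DNA-binding partner Tead1, the kinases Lats1 and Lats2, the angiomotin family adaptors Amotl1 and Amotl2, the LIM-domain protein gene Ajuba, and the target genes Ccn1 and Ccn2. All 10 were found in both tables, among 22674 genes in the table of the maturation window and 18274 in that of the ovulation window. The follicles came from wild-type CD-1 mice, an outbred laboratory stock. In the maturation window, the period of gonadotropin-dependent follicle growth, 11 control libraries treated with the solvent DMSO were compared with 10 PFNA libraries. In the ovulation window, 12 control libraries treated with human chorionic gonadotropin (hCG), the hormone that triggers ovulation, were compared with 11 libraries given hCG and PFNA, so both groups of that window had received hCG. The dose, the length of exposure, the age of the mice and the number of follicles or animals in a library are not given in the labels. Because the labels do not say whether libraries of a group came from separate animals or cultures, p-values measure only the spread between these libraries, which may be technical.

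In the Hippo pathway, the kinases MST1 and MST2 activate LATS1 and LATS2, which phosphorylate YAP and TAZ (the product of Wwtr1) and keep them out of the nucleus. Unphosphorylated YAP and TAZ enter the nucleus and bind TEAD factors, and matricellular protein genes such as Ccn1 (formerly Cyr61) and Ccn2 (formerly Ctgf) are their best known targets. Angiomotin proteins hold YAP at cell junctions and help LATS, whereas AJUBA binds LATS and restrains it. LATS2 and AMOTL2 are themselves targets of YAP and TEAD in many cell types, which makes them part of a feedback loop. In the ovary, the pathway is known for its part in follicle growth after mechanical disruption of the tissue. Transcript levels do not report the phosphorylation or location of YAP and TAZ, which were not measured.

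Promoters of the 4 genes that were higher with PFNA in both windows and have a promoter sequence are shown, since each holds the TEAD binding motif. The sequences are the 250 bases before the first transcribed base in RefSeq, on build GRCm38.p6, written 5′ to 3′ on the strand of the gene. Capitals mark the TEAD motif GGAATG and the core of the cyclic AMP response element. That core is written TGACG, both motifs were searched on both strands, and a match on the opposite strand appears as the reverse complement. The Ccn1 window is chr3:145649986-145650235 on the minus strand, the Amotl2 window is chr9:102717554-102717803 on the plus strand, the Ajuba window is chr14:54577662-54577911 on the minus strand, and the Wwtr1 window is chr3:57575911-57576160 on the minus strand.
Ccn1: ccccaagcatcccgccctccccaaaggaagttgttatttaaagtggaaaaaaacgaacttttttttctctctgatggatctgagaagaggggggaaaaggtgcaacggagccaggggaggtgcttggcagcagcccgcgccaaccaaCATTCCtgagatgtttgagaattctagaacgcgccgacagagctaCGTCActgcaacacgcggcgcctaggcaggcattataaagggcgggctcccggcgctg
Amotl2: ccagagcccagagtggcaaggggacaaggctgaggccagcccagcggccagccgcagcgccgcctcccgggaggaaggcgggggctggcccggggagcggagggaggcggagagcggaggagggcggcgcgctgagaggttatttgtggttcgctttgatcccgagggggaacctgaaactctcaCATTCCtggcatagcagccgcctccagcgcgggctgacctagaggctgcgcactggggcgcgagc
Ajuba: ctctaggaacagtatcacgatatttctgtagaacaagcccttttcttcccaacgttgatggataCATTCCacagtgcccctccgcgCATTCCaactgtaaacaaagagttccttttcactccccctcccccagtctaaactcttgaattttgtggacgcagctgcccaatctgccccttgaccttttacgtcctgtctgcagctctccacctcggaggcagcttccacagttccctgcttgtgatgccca
Wwtr1: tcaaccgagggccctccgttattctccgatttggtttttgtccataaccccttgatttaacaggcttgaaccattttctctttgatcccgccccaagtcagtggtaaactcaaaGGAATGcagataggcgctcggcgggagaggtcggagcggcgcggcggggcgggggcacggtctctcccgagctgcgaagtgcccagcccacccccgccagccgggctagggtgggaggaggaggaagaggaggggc

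In Ccn1, Amotl2 and Ajuba the TEAD motif was on the opposite strand and in Wwtr1 on the strand of the gene. It lay 103 to 98 bases before the start of Ccn1 and 65 to 60 bases before that of Amotl2. Ajuba held 2 matches, at 186 to 181 and 164 to 159 bases before the start. In Wwtr1 the match lay 136 to 131 bases before the start shown. Of the 8 members with a promoter entry, 5 held the TEAD motif, the fifth being Yap1, which was not higher with PFNA in either window. Among all 32851 RefSeq windows of this length 12.6% held it, and 14.4% of the 27025 genes with an entry held it in at least 1 window. The AP-1 motif TGANTCA was found in 0 of the 8 members and in 7.82% of genes. The core TGACG was found in 3 of them (Lats2, Amotl1 and Ccn1) and in 19.8% of genes. The CArG box, the binding motif of serum response factor, was found in 0 of the 8 and in 1.62% of genes. No match overlapped that of another motif in these members. The starts used for Amotl2, Lats2 and Amotl1 lie inside the genes as the deposited positions give them. These are matches of letters and not measured binding sites.

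Values of the maturation window were read as transcript abundances divided by length and scaled to a fixed total (TPM). Each library summed to 1000000, so depth is unknown. Across 10739 genes the log2 ratio of the control means to those of the ovulation counts scaled to their totals had a slope of -1.28 against log2 exon length. This slope is a description across genes, with no test. No label names the unit, and the order of the members by level rests on this reading. Ovulation libraries held 10.6 to 19.5 in units of 1e+06 counts. Levels there are given as counts scaled to the library total (CPM, TMM-normalized), which are not divided by transcript length, so levels are compared between genes only in TPM. Granulosa cell and oocyte markers were present in both windows, and no marker of any cell type list was at 0 in every library. In the maturation window 17 of 18 tested oocyte markers fell with PFNA and 0 rose. Their summed level was 243 to 400.1 TPM in controls and 12.2 to 588 TPM with PFNA, where replicates 1, 2 and 10 had 244, 198 and 588 TPM and the other libraries at most 28.7 TPM. During ovulation 13 of 19 oocyte markers rose with PFNA (summed level 141 to 534 CPM in controls and 67.5 to 733 CPM with PFNA). Of the granulosa markers 7 of 12 fell in the maturation window. Their sum was 44902 to 68743 TPM in controls and 15461 to 51873 TPM with PFNA. During ovulation 9 of 12 rose and 2 fell (12698 to 19501 CPM in controls, 12002 to 18252 CPM with PFNA). The 2 that fell, Inha and Inhba, made up most of that sum, with control means of 7352 and 6698 CPM. In the maturation window Inha was the largest part of the sum, with a control mean of 34970 TPM. In bulk libraries of this kind, a change in the number of cells of a type and a change in RNA per cell cannot be told apart. Among all genes tested, 13.3% rose and 16.1% fell in the maturation window, and 38.0% rose and 35.2% fell in the ovulation window. The part of these markers in the gene results was not tested beyond the covariate fits given beside them. Maturation PFNA replicates 1 and 2 scored -18.1 and -10.6 on the first principal component, among the controls (-37.7 to -7.60), whereas replicate 10 stood apart by its cell type markers.

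In the maturation window 7 of the 10 genes were higher with PFNA and 0 were lower (limma on log2(TPM + 1), Benjamini-Hochberg adjusted p under 0.05). Ccn1, Ajuba and Amotl2 changed most, with 3.41-fold, 2.80-fold and 2.61-fold higher levels. Lats2, Tead1, Ccn2 and Wwtr1 rose by smaller steps, at most 1.6-fold. Yap1, Lats1 and Amotl1 did not pass the threshold. Across all 13712 genes tested in this window 29.4% were called, of which 13.3% of genes were higher and 16.1% lower, and the median log2 fold change of all genes was 0.02 against 0.50 for the 10 members. The members and the gene lists below were chosen with earlier results of these data known. Comparisons of them with all genes are therefore descriptions only. When the log2 oocyte marker share of each library was added as a covariate, 3 of the 10 were called (Ajuba, Amotl2 and Lats2), beside 650 of all genes in place of 4030. That share was itself lower in most PFNA libraries, with a median of 0.0021% against 0.034% in controls. The covariate and the exposure thus cannot be fully told apart. Without PFNA replicates 1 and 2 the 7 members stayed called and Amotl1 joined them (log2 fold change 0.51, limma adjusted p = 0.0109), and without replicate 10 the count was again 7. Rescaling TPM without mitochondrial-like genes turned the balance of all genes to 2654 higher and 1910 lower, from 1824 and 2206, and left 7 members higher.

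**Figure D1:**
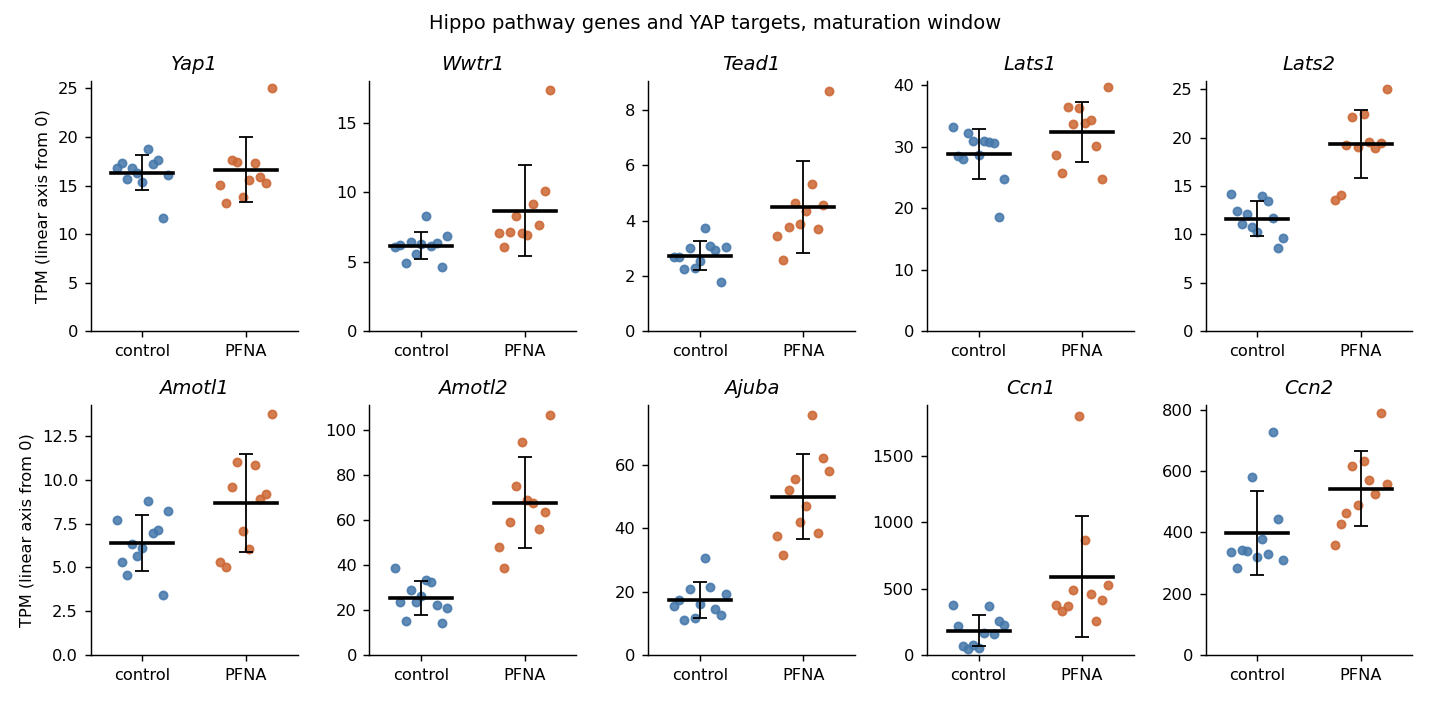
Level in TPM of each of the 10 genes in the maturation window, with a linear axis from 0. Each point is a library (11 control, 10 PFNA), the thick line is the group mean and the bar is 1 SD. All 10 PFNA libraries of Ajuba lie above its highest control, whereas the groups of Yap1 lie over each other.

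In the ovulation window 6 of the 10 genes were higher with PFNA and 3 were lower (edgeR's quasi-likelihood test, Benjamini-Hochberg adjusted p under 0.05). The target genes and the adaptor Amotl2 led the increase, with Ccn1 5.13-fold, Amotl2 4.11-fold and Ccn2 3.0-fold higher. Ajuba rose 1.72-fold and Wwtr1 1.53-fold, and Amotl1 rose 1.21-fold. Tead1, Lats1 and Yap1 fell, by log2 fold changes of -0.69, -0.60 and -0.38. Lats2 did not pass the threshold. In this window most genes changed: 73.2% of 13441 tested genes were called, 38.0% higher and 35.2% lower, with a median log2 fold change of 0.04 for all genes and 0.44 for the members. With such a share of all genes called, the count of called members is not a result about the members.

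**Figure D2:**
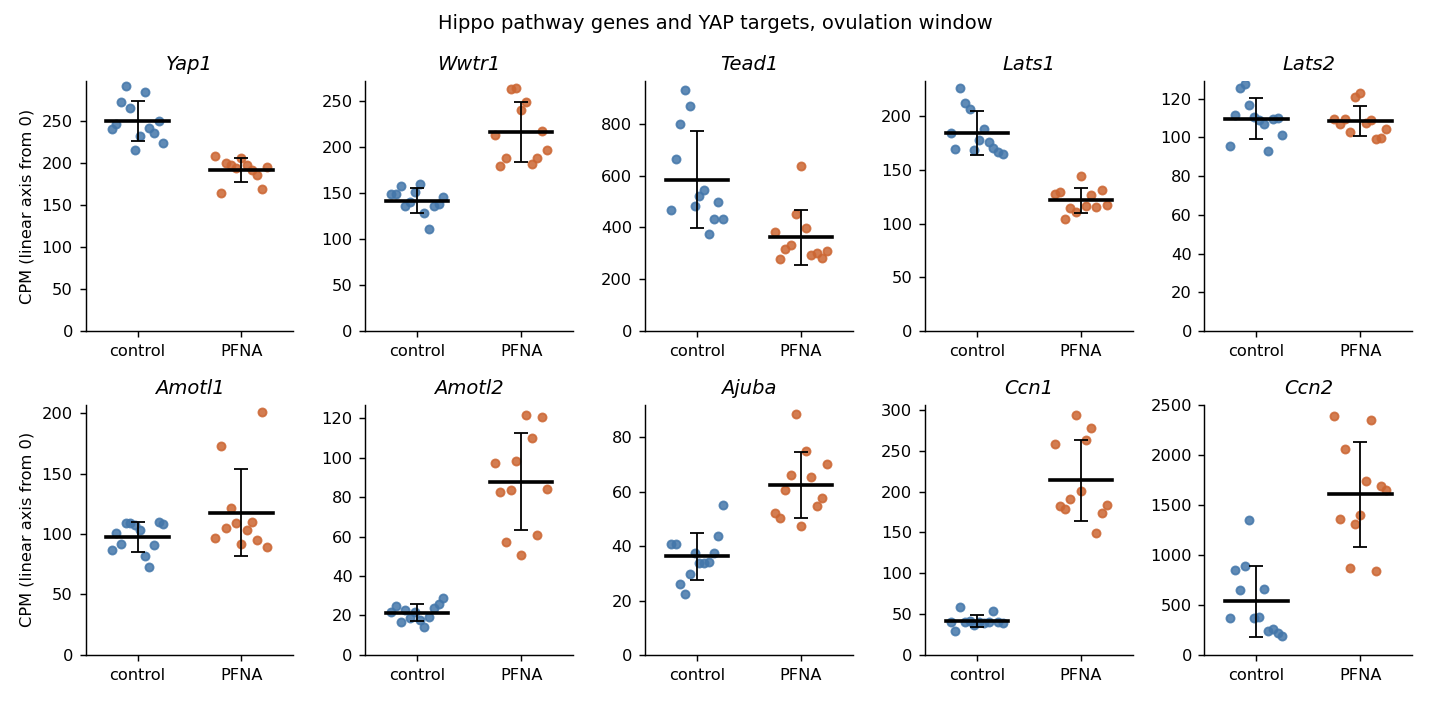
Level in CPM of each of the 10 genes in the ovulation window, with a linear axis from 0. Each point is a library (12 control, 11 PFNA), the thick line is the group mean and the bar is 1 SD. The groups do not overlap for Wwtr1, Amotl2 and Ccn1, which were higher, or for Yap1 and Lats1, which were lower.

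The co-activators Yap1 and Wwtr1 parted in the ovulation window. Yap1 (chromosome 9, 7931999 to 8004596 on GRCm38) had a lowest, median and highest level of 216, 245 and 292 CPM in controls and 165, 195 and 208 CPM with PFNA. All 11 PFNA libraries lay below every control, a separation that 26.0% of the genes tested in this window showed in either direction. On the log2 scale it fell by 0.38 (SE 0.057, edgeR adjusted p = 1.32e-06). Wwtr1 (chromosome 3, 57455649 to 57575910), which encodes TAZ, the paralog of YAP, went the other way. Its levels were 111, 143 and 159 CPM in controls and 179, 214 and 264 CPM with PFNA. Every PFNA library was above every control, and the log2 fold change was 0.61 (SE 0.075, edgeR adjusted p = 6.68e-08).

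During maturation Yap1 ranged from 11.7 over a median of 16.8 to 18.8 TPM in controls and from 13.2 over 15.7 to 25.1 TPM with PFNA. The groups overlapped, and only PFNA replicate 10 lay above every control. Its log2 fold change was 0.01 with a 95% confidence interval of -0.17 to 0.20 (limma adjusted p = 0.932). Wwtr1 was at 4.61, 6.18 and 8.33 TPM in controls (lowest, median and highest) and at 6.05, 7.39 and 17.4 TPM with PFNA. Here 3 of 10 PFNA libraries were above every control, and replicate 10 was far above the rest. Wwtr1 thus changed by 0.39 on the log2 scale (SE 0.13, limma adjusted p = 0.0278). Without PFNA replicate 10 it was 0.28 (limma adjusted p = 0.0247), and without PFNA replicate 9 the call was lost (limma adjusted p = 0.0513). With the oocyte covariate the call was also lost (limma adjusted p = 0.0583), although the log2 fold change was larger, at 0.61. Among the 10 genes Wwtr1 was 9th in TPM level in both groups, and its range in maturation controls overlapped that of its neighbour Amotl1.

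Tead1 encodes a TEAD factor, which supplies the DNA contact that YAP and TAZ lack, and it moved in opposite directions in the 2 windows. During maturation Tead1 (chromosome 7, 112679318 to 112906807) ranged from 1.79 over a median of 2.68 to 3.72 TPM in controls and from 2.56 over 4.11 to 8.70 TPM with PFNA. It had the lowest level of the 10 genes in both groups, and 7 of 10 PFNA libraries were above every control. Its change was 0.52 on the log2 scale (SE 0.13, limma adjusted p = 0.00483) and 0.43 without PFNA replicate 10. With the oocyte covariate Tead1 was not called, although its log2 fold change was larger, at 0.64 (limma adjusted p = 0.0572). In ovulation libraries it ranged from 373 over 509 to 931 CPM in controls and from 279.5 over 316 to 637 CPM with PFNA. The control libraries were widely spread, 7 of 11 PFNA libraries lay below every control, and PFNA replicate 6 was the highest of its group. Here the log2 fold change was -0.69 (SE 0.16, edgeR adjusted p = 0.000507).

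The kinase genes Lats1 and Lats2 encode the enzymes that phosphorylate YAP and TAZ, and each was called in a different window. Lats2 (chromosome 14, 57689662 to 57758388) was at 8.56, 11.7 and 14.1 TPM in maturation controls (lowest, median and highest) and at 13.6, 19.4 and 25.04 TPM with PFNA. The groups overlapped through PFNA replicates 1 and 2 alone, and the other 8 libraries were above every control. For Lats2 the log2 fold change was 0.68 (SE 0.10, limma adjusted p = 4.75e-05). Ovulation controls had Lats2 at 93.1, 109.7 and 127 CPM, and PFNA libraries at 99.2, 108 and 123 CPM. The PFNA libraries fell inside the control range, with a log2 fold change of -0.02 and a 95% confidence interval of -0.13 to 0.10 (edgeR adjusted p = 0.780).

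Lats1 (chromosome 10, 7681214 to 7716460) was the most abundant of the 8 members other than the targets in maturation controls, with 18.6, 30.5 and 33.1 TPM. With PFNA it was at 24.7, 33.8 and 39.6 TPM, and the groups overlapped. Its log2 fold change of 0.16 had a 95% confidence interval of -0.04 to 0.36 (limma adjusted p = 0.214). After hCG it was at 165, 177 and 227 CPM in controls and at 104, 117 and 144 CPM with PFNA. All 11 PFNA libraries lay below every control, and the log2 fold change was -0.60 (SE 0.063, edgeR adjusted p = 5.28e-09).

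Amotl2, the adaptor gene that is also a YAP target, rose in both windows. During maturation Amotl2 (chromosome 9, 102716672 to 102733418) ranged from 14.4 over a median of 23.7 to 38.8 TPM in controls and from 38.6 over 65.4 to 107 TPM with PFNA. Only PFNA replicate 2 lay inside the control range, just under the highest control, and the log2 fold change was 1.38 (SE 0.18, limma adjusted p = 1.32e-05). In ovulation libraries it ranged from 14.2 over 21.8 to 29.0 CPM in controls and from 50.9 over 84.3 to 122 CPM with PFNA. The groups did not overlap. Amotl2 changed by 2.04 on the log2 scale there (SE 0.14, edgeR adjusted p = 4.31e-12).

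Its paralog Amotl1 (chromosome 9, 14541966 to 14645056) changed less. In maturation controls it was at 3.43, 6.34 and 8.81 TPM (lowest, median and highest) and with PFNA at 5.02, 9.06 and 13.8 TPM. PFNA replicates 1, 2, 5 and 6 lay within the control range and the other 6 above it. Its log2 fold change was 0.37 (SE 0.16), with a limma adjusted p of 0.0939 that passed the threshold without replicate 1 (0.0448) or replicate 2 (0.0378). After hCG it was at 73.0, 102 and 110.2 CPM in controls and at 89.4, 105 and 201 CPM with PFNA. PFNA replicates 2 and 10 stood above the others. Amotl1 was called at a log2 value of 0.27 (SE 0.12, edgeR adjusted p = 0.0461), but the call failed in 11 of 23 leave-one-out fits, with 0.16 without PFNA replicate 10 and 0.20 without PFNA replicate 2.

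Ajuba encodes a LIM-domain scaffold that binds LATS kinases and links adhesion sites to the pathway, and it was the member whose groups were fully apart in the maturation window. Ajuba (chromosome 14, 54567472 to 54577558) ranged from 11.2 over a median of 16.0 to 30.8 TPM in controls and from 31.5 over 49.5 to 75.8 TPM with PFNA. Every PFNA library lay above every control, although the lowest, replicate 2, was close to the highest control, replicate 8. Only 1.28% of the genes tested in this window had groups so separated, in either direction. Ajuba changed by 1.49 on the log2 scale (SE 0.17, limma adjusted p = 4.40e-06), and by 1.42 to 1.57 in the 21 leave-one-out fits. After hCG Ajuba ranged from 22.2 over 35.8 to 55.1 CPM in controls and from 47.3 over 60.6 to 88.6 CPM with PFNA. Here 7 of 11 PFNA libraries were above every control. Its change was 0.78 on the log2 scale (SE 0.12, edgeR adjusted p = 3.16e-06).

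The genes whose profile over libraries lay nearest to that of Ajuba were found by the mean absolute difference of their log2 values after subtraction of the control mean. In the 21 maturation libraries these were Gm7694 at 0.17, Grb14 at 0.20 and Fgd3 at 0.21, where the median over all genes tested was 0.89. Grb14, an adaptor of the insulin receptor family, rose from a mean of 20.9 to 54.8 TPM. Fgd3 was low, with means of 1.12 TPM in controls and 4.82 TPM with PFNA, where the 1 added before the logarithm understates its change. In the 23 ovulation libraries they were Hmg20b at 0.15, Rsrc1 at 0.16 and Rbck1 at 0.17, with a median over all genes of 0.59. No gene was among the nearest 3 in both windows.

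Ccn1 and Ccn2 encode secreted matricellular proteins and are the usual readout of YAP and TEAD activity, though other pathways also act on them. Ccn1 (chromosome 3, 145646976 to 145649981) ranged from 42.6 over a median of 168 to 374 TPM in maturation controls and from 259.6 over 436 to 1801 TPM with PFNA. The controls were widely spread, with a coefficient of variation of 64.8%, and 7 of 10 PFNA libraries were above every control. The log2 fold change was 1.77 (SE 0.40, limma adjusted p = 0.00228). Without PFNA replicate 5, the highest library, it was 1.56 (limma adjusted p = 0.00411), and with the oocyte covariate the call was lost (1.52, limma adjusted p = 0.129). Ovulation controls were tightly grouped at 29.9, 40.3 and 58.4 CPM, with a coefficient of variation of 18.2%, against 149, 191 and 293 CPM with PFNA. The groups did not overlap. Its change of 2.36 on the log2 scale (SE 0.12, edgeR adjusted p = 7.59e-15) was the largest of the 10 genes in this window.

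Ccn2 (chromosome 10, 24595442 to 24598683) had the highest TPM level of the 10 genes in maturation controls, at 283, 338 and 727 TPM (lowest, median and highest). With PFNA it was at 358, 542 and 791 TPM. Only PFNA replicate 9 was above every control, because control replicates 6 and 10 stood above the other controls. Its change of 0.47 on the log2 scale (SE 0.16, limma adjusted p = 0.0268) was not called without PFNA replicate 9 (0.41, limma adjusted p = 0.0534) or with the oocyte covariate (0.21, limma adjusted p = 0.583). After hCG Ccn2 was at 192, 375 and 1347 CPM in controls and at 835, 1653 and 2391 CPM with PFNA. In that window 8 of 11 PFNA libraries were above every control. The log2 fold change was 1.58 (SE 0.30, edgeR adjusted p = 4.25e-05).

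In maturation controls the members, ordered by mean TPM, were Ccn2 at 399, Ccn1 at 183, Lats1 at 28.8, Amotl2 at 25.4, Ajuba at 17.4, Yap1 at 16.3, Lats2 at 11.6, Amotl1 at 6.40, Wwtr1 at 6.16 and Tead1 at 2.73. Each gene's range overlapped that of the next in this order, apart from Ccn1 and Lats1 and from Wwtr1 and Tead1. The genes were measured in the same libraries, so overlapping ranges do not show that an order changed. Amotl2 lay above Ajuba, Yap1 above Lats2 and Lats2 above Amotl1 in every control library. The order of the other overlapping neighbours changed between control libraries. With PFNA the order became Ccn1, Ccn2, Amotl2, Ajuba, Lats1, Lats2, Yap1, Amotl1, Wwtr1 and Tead1. Ccn1 stood above Ccn2 through PFNA replicate 5, without which their means were 455 and 549 TPM. Amotl2 and Ajuba stood above Lats1 in the PFNA mean and below it in the control mean. In these controls the spread over libraries was smallest for Yap1 (coefficient of variation 11.1%) and largest for Ccn1, and in ovulation controls it reached 66.0% for Ccn2.

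Whether PFNA acted with the same size in both windows was tested for each gene by subtracting the log2 effect in the maturation window from that in the ovulation window, with limma run separately on either table. Of the 10 genes, 7 differed (adjusted p under 0.05), 5 with a lower and 2 with a higher effect in the ovulation window. Across 11198 genes tested in both windows 67.7% differed, 35.6% with a lower and 32.0% with a higher effect there. The count of differing members is near that share and is not a result about the members. Among the 5 genes with a lower effect the difference was widest for Tead1, at -1.2 on the log2 scale (SE 0.20, limma adjusted p = 1.67e-06). The kinase genes followed, with differences of -0.75 for Lats1 (SE 0.11, limma adjusted p = 3.72e-07) and -0.70 for Lats2 (SE 0.12, limma adjusted p = 3.06e-06). Yap1 differed by -0.39 (SE 0.11, limma adjusted p = 0.00147).

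Ajuba was higher in both windows, but its effect was smaller in the ovulation window (difference -0.70, SE 0.20, limma adjusted p = 0.00262). Ccn2 and Amotl2 showed the larger effect there, with differences of 1.30 (SE 0.33, limma adjusted p = 0.000766) and 0.58 (SE 0.23, limma adjusted p = 0.0228). The Ajuba and Amotl2 differences were not called with the oocyte covariate (limma adjusted p = 0.131 and 0.129), nor was that of Amotl2 without maturation PFNA replicates 1 and 2 (0.0805). For Wwtr1, Amotl1 and Ccn1 the differences did not pass. Their 95% confidence intervals were -0.10 to 0.51, -0.54 to 0.27 and -0.31 to 1.41, so they do not show equal effects. Counting calls, 5 members were higher in both windows (Wwtr1, Amotl2, Ajuba, Ccn1 and Ccn2) and Tead1 alone was called in opposite directions. The share of all genes in these joint classes is not given here, so these counts describe the members and do not set them apart. Each window has its own table, unit and gene models, so a technical difference between the tables and the window cannot be told apart.

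**Figure D3:**
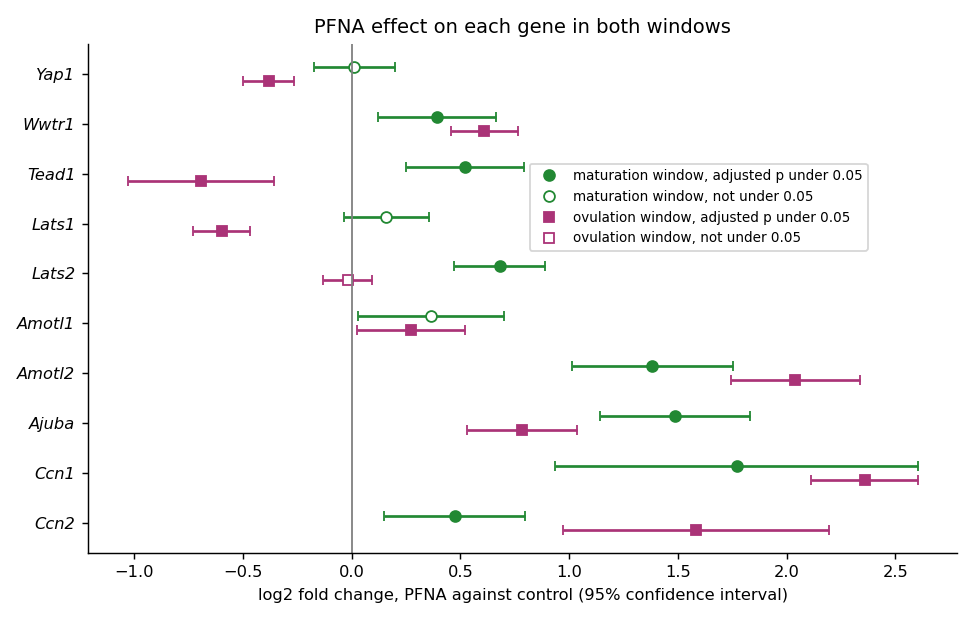
Log2 fold change of PFNA against control for each of the 10 genes, with its 95% confidence interval, from limma in the maturation window (green circles) and edgeR in the ovulation window (purple squares). Filled marks passed an adjusted p under 0.05. Tead1 lies at 0.52 in the maturation window and at -0.69 in the ovulation window, and Ccn1, Amotl2 and Ajuba lie right of 0 in both with intervals that do not reach it.

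The rest of the pathway was read from a list of 36 other Hippo genes. Of these, 11 of 33 tested in the maturation window rose and 1 fell, where 13.3% of all genes rose and 16.1% fell. Their median log2 fold change was 0.16, against 0.02 for all genes. Tead2, another TEAD factor, rose from 40.4 to 58.7 TPM in the mean, with 10 of 10 PFNA libraries above every control (log2 fold change 0.52, limma adjusted p = 2.00e-05). Wwc2, a KIBRA family scaffold, Map4k4, a kinase that acts on LATS beside MST1 and MST2, and Ptpn14, a phosphatase that binds YAP, rose with log2 fold changes of 0.79, 0.74 and 0.68. Amot, the founding angiomotin gene, was the gene that fell, from 6.44 to 4.51 TPM (log2 fold change -0.43, limma adjusted p = 0.000789). It moved opposite to its paralog Amotl2. With the oocyte covariate 2 of these 33 genes were called.

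In the ovulation window 22 of 35 tested genes of the same list fell and 6 rose, where 35.2% of all genes fell and 38.0% rose. The median log2 fold change was -0.58, against 0.04 for all genes. Those with the smallest p among the fallers were Stk4, which encodes MST1, from 106 to 55.7 CPM (log2 fold change -0.93, edgeR adjusted p = 1.60e-13), Mob1b, a LATS co-activator (-1.13), Ywhaz, whose product holds phosphorylated YAP in the cytoplasm (-1.52) and Limd1, a LIM-domain relative of Ajuba (-0.80). Sav1, the scaffold of the MST kinases, named here after its value was seen, had the most negative log2 fold change of the list, falling from 287 to 79.4 CPM (-1.85, edgeR adjusted p = 6.29e-11). Nf2, the upstream tumour suppressor Merlin, also named after its value was seen, fell by 0.61 on the log2 scale. Genes that rose with the smallest p were Map4k4, from 376 to 686 CPM (log2 fold change 0.87, edgeR adjusted p = 4.62e-11), Stk3, which encodes MST2 (0.72), Rassf5 (1.03) and Strn3 (0.27). The paralogs Stk3 and Stk4 thus moved in opposite directions.

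Between windows, 26 of the 33 Hippo genes tested in both had a lower effect in the ovulation window and 1 a higher effect, where 35.6% of all genes had a lower and 32.0% a higher effect. Of these genes, 6 rose in the maturation window and fell in the ovulation window, as Tead1 did, and 14 were not called in the maturation window and fell in the ovulation window, as Yap1 and Lats1 did. Map4k4 was the gene that rose in both, and Amot the gene that fell in both. The share of all genes in each of these joint classes is not given here. These counts therefore describe the list and do not set it apart from other genes.

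Of the other published YAP and TAZ targets, 6 of 19 tested rose in the maturation window and 1 fell, where 13.3% of all genes rose and 16.1% fell. Their median log2 fold change was 0.24, against 0.02 for all genes. Myof, a membrane repair protein gene, rose from 6.38 to 14.7 TPM (log2 fold change 1.08, limma adjusted p = 1.58e-05), and Crim1, which encodes a membrane protein that binds bone morphogenetic proteins, from 29.0 to 52.2 TPM (0.83). Ptpn14, which this list also holds, and Gadd45a, a stress response gene (0.53), followed. Birc5, the mitotic gene that encodes survivin, fell from 42.5 to 12.6 TPM with all 10 PFNA libraries below every control (log2 fold change -1.93, limma adjusted p = 1.72e-05). With the oocyte covariate 4 of the 19 genes were called.

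In the ovulation window 9 of 22 tested targets rose and 6 fell, near the 38.0% and 35.2% of all genes, so these counts are not a result about the targets. The median log2 fold change was 0.33, against 0.04 for all genes. Dlc1 rose from 52.9 to 288 CPM with 11 of 11 PFNA libraries above every control (log2 fold change 2.44, edgeR adjusted p = 2.54e-13). Myof (1.17) and Arhgef17 (1.07) also rose. Ccn3, a relative of Ccn1 and Ccn2, rose from 1.49 to 14.8 CPM (3.31, edgeR adjusted p = 2.04e-06), with 10 of 11 PFNA libraries above every control and the other at 0. Axl, a receptor tyrosine kinase gene, fell from 407 to 180.1 CPM with 11 of 11 libraries below every control (log2 fold change -1.17, edgeR adjusted p = 4.06e-11). Nt5e, F3 and Asap1 fell with log2 fold changes of -2.0, -1.33 and -0.40. Of the targets tested in both windows 3 rose in both (Myof, Arhgef17 and Gadd45a), and Birc5 was lower in the maturation window and higher in the ovulation window (log2 fold change 0.99). For these joint classes, too, the share of all genes is not given here.

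**Figure D4:**
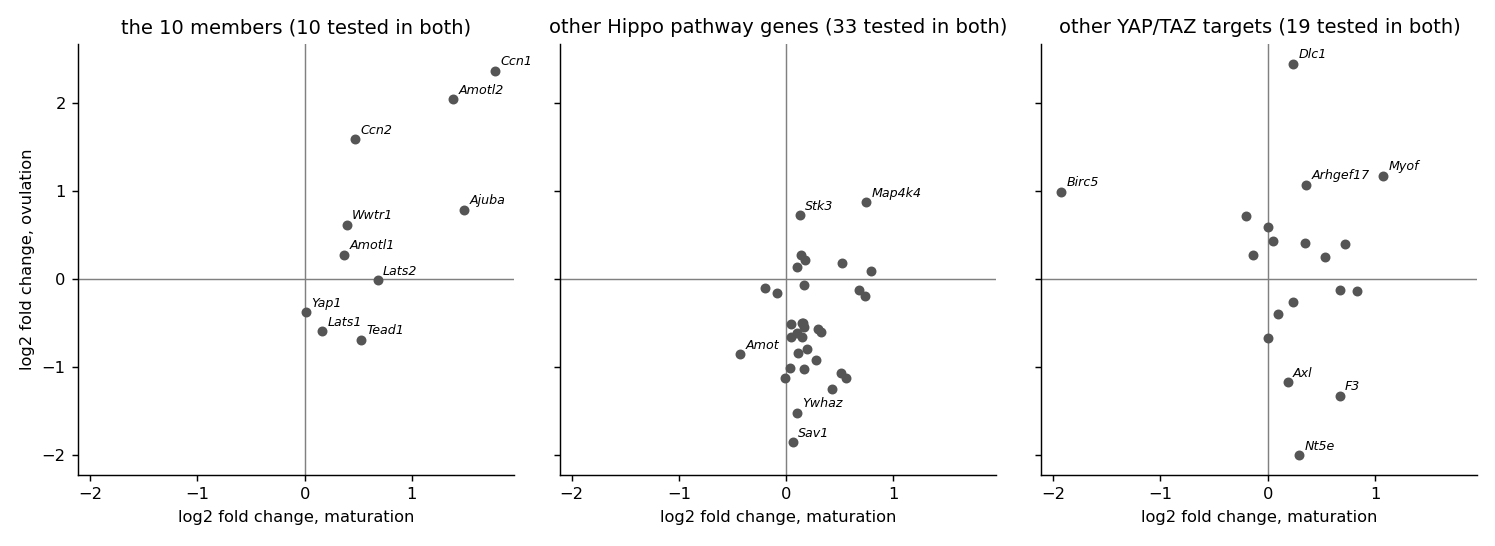
Log2 fold change of PFNA against control in the maturation window (horizontal axis) and in the ovulation window (vertical axis) for the 10 genes, the 33 other Hippo genes and the 19 other targets tested in both. Each point is a gene, and grey lines mark 0. Most other Hippo genes lie below 0 on the vertical axis (22 of 35 tested in that window fell), and the 5 members higher in both windows lie in the upper right, beside Amotl1, which was called in the ovulation window alone.

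Levels of theca and stroma markers are given here because single libraries were high in both these markers and several members. During maturation the 12 markers of theca and stroma cells summed to 388 to 1096 TPM in controls and 446 to 2060 TPM with PFNA, and 2 of 11 tested rose (Tagln and Ptch1). PFNA replicate 10 had the highest sum (the next PFNA library had 1087 TPM), and it was also the highest PFNA library for Yap1, Wwtr1, Tead1, Lats1, Lats2, Amotl1 and Amotl2. It held the highest leukocyte marker sum (173 TPM) and the lowest granulosa sum. Among controls, replicate 8 had the highest theca and stroma sum and was the highest for Yap1, Wwtr1, Tead1, Amotl1 and Ajuba, whereas replicate 11, the lowest for 7 members, had a sum within the range. For the ovulation window the sum was 242 to 2197 CPM in controls and 1353 to 3991 CPM with PFNA, and 9 of 12 markers rose while Pdgfra fell (log2 fold change -2.21). Of all genes tested, 13.3% rose in the maturation window and 38.0% in the ovulation window.

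With the log2 sum as a covariate, an analysis added after these values were seen, 5 members were called in the maturation window (Tead1, Lats2, Amotl2, Ajuba and Ccn1), and Wwtr1 and Ccn2 were not (limma adjusted p = 0.0553 and 0.0679). For the ovulation window 8 were called and Amotl1 was not (edgeR adjusted p = 0.424). The Ajuba effect was 1.30 in the maturation and 0.61 in the ovulation window in these fits. Of the other targets in the ovulation window 6 were then higher and 7 lower, with a median of -0.01, so the balance of that list turned. Counts and medians of all genes in these fits are not given here. Whether the turn is particular to the targets was not tested. Endothelial markers did not pass in the maturation window (0 of 6 tested, summed level 4.83 to 105 TPM in controls and 14.5 to 101 TPM with PFNA) and 6 of 8 rose in the ovulation window (30.1 to 166 CPM in controls and 41.9 to 475 CPM with PFNA). Of the leukocyte markers 1 of 4 tested rose in the maturation window (8.92 to 72.9 TPM in controls and 31.3 to 173 TPM with PFNA) and 2 of 8 in the ovulation window (2.39 to 132 CPM and 4.22 to 149.9 CPM). Beside these marker counts, 13.3% of all genes tested rose in the maturation window and 38.0% in the ovulation window. The part of these cell types in the results was otherwise not tested.

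**Figure D5:**
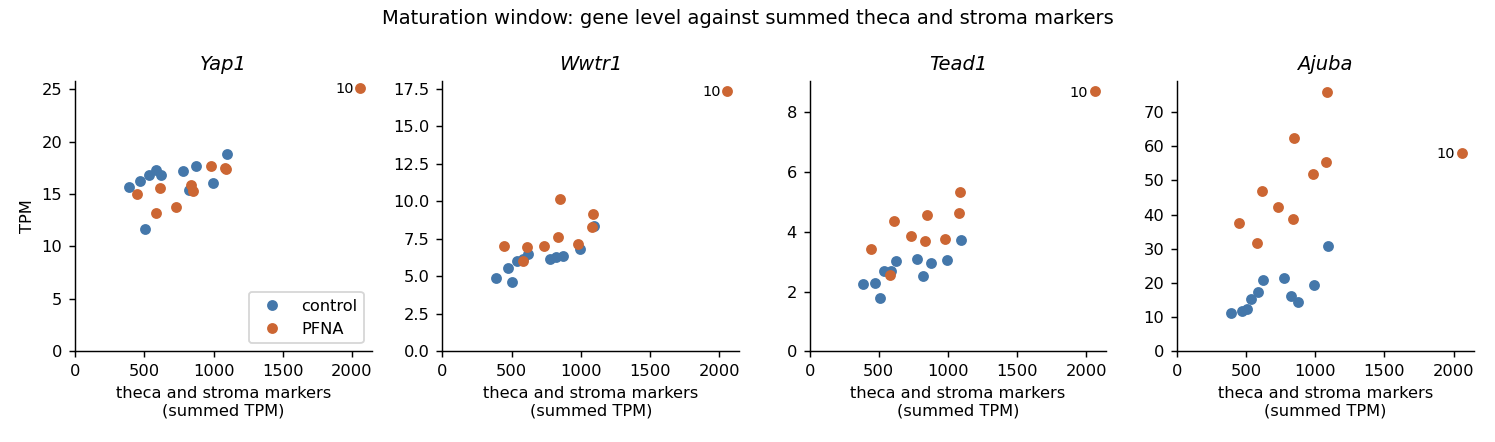
Level in TPM of Yap1, Wwtr1, Tead1 and Ajuba in each maturation library (vertical axes, linear from 0) against the summed TPM of the 12 theca and stroma markers (horizontal axes). Each point is a library, control in blue and PFNA in orange, with PFNA replicate 10 numbered. Replicate 10 lies at 2060 on the horizontal axis and apart from the others for Yap1, Wwtr1 and Tead1, whereas for Ajuba every PFNA library lies above every control.

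Some annotated genes overlap members, and the use of strand in the authors' counting is not given in the sources used here. Gm16016 on the strand opposite Wwtr1 had a mean of 0.662 TPM, Gm15270 opposite Ccn2 had 0.164 TPM, 2310014F06Rik opposite Tead1 had 0.0527 TPM and Gm49361 on the strand of Lats2 had 0.00959 TPM. All were far below the member they overlap.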

How the data were processed

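There are 2 gene tables, 1 per window. The maturation values as deposited by the authors were treated as TPM, although the table is named as raw counts and no label names the unit. Each library sums to 1000000, 82.3% of values are not whole numbers (tolerance 0.001), and the ratio of control means to ovulation CPM fell with exon length (GENCODE M21, slope -1.28 on log2 scales, Spearman correlation across 10739 genes -0.577, genes with means of at least 1 in both). The ovulation table holds estimated counts as deposited by the authors, of which 14.9% are not whole; they were rounded. The submitters' processing notes name Partek, Bowtie2 and HISAT2 with no version or role. The annotation and the use of strand are not given in the sources used here. Gene starts matched GENCODE M21 on GRCm38 for 99.4% of 22182 symbols in the maturation table and 37.2% of 17842 in the ovulation table, and positions are from the former.

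Column names were matched to sample titles. The column CN6 was taken as maturation control replicate 6, whose title is CM6. No pair of libraries was identical (chi-square per degree of freedom at least 7.22 in the ovulation window, highest correlation 0.981 in the maturation window). Symbols turned into dates (24 and 26) were not joined across tables.

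For the maturation window limma 3.58.1 (trend and robust settings on) was run on log2(TPM + 1) for genes whose mean reached 1 TPM, so low genes have understated fold changes. The ovulation window was tested with edgeR 4.0.16 (quasi-likelihood, filterByExpr, TMM, robust = TRUE) in R 4.3.3. That test reports no SE, so SEs and confidence intervals given with edgeR were derived from the log2 fold change and the F statistic. All 10 members passed both filters. The difference between windows used limma on log2 values within each table, with degrees of freedom after Satterthwaite. Adjustment of p-values (Benjamini-Hochberg) was over all genes tested, and scripts were tested on simulated data. Same-numbered libraries did not deviate together (correlations of -0.14 to 0.17 over 9 pairs and -0.19 to 0.07 over 11 pairs), so numbers were not treated as pairs.

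Genes named were the 10 members, from each list and window the 4 higher and 4 lower called genes with the smallest p, the 3 genes nearest to Ajuba per window and markers of other cell types. The members, lists and markers were chosen with earlier results of these data known. Alternatives covered the pseudocount, filters, size factors, tests, covariates, the replicate block and left-out libraries.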

Additional observations from a re-analysis of the deposited data

Results flagged for a closer look

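In the maturation PFNA group of 10 libraries, 19 genes (the members and the other genes named in that window) were searched for 1 library standing apart from the rest by Dixon's test, and 5 were found where 0.95 are expected by chance at about 1 in 20. The genes were measured in the same libraries, so these 5 are not independent and their number is not a test of an excess. Groups of more than 10 libraries were not searched. PFNA replicate 10 was apart in 4 of them: Yap1 at 25.1 TPM (next library 17.7), Wwtr1 at 17.4 TPM (next 10.1), Tead1 at 8.70 TPM (next 5.32) and Ptpn14 at 5.76 TPM (next 3.27). PFNA replicate 5 was apart for Ccn1, at 1801 TPM against 871 TPM in the next library.

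The PFNA effect differed between windows, by the test of the difference itself, for 7 members. In the ovulation window it was lower for Tead1 by a log2 difference of -1.20, for Lats1 by -0.75, for Ajuba by -0.70, for Lats2 by -0.70 and for Yap1 by -0.39. It was higher for Ccn2 by 1.30 and for Amotl2 by 0.58. Across 11198 genes tested in both windows 67.7% differed, so the count of 7 is not a result about the members.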

How the results depend on the processing

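Once the oocyte share was a covariate, 650 genes were called (303 higher, 347 lower) in place of 4030 in the maturation window, and 3 members, 2 other Hippo genes and 4 other targets. The log2 fold changes of the members then lost were 0.61 for Wwtr1, 0.64 for Tead1, 1.52 for Ccn1 and 0.21 for Ccn2, and the cause was not tested. The near-zero effect of Yap1 in the maturation window turned to -0.0166 with median-ratio size factors and -0.0836 with the theca and stroma covariate. That of Lats2 in the ovulation window turned to 0.0038 with DESeq2 size factors in edgeR, 0.0039 with the DESeq2 Wald test, 0.0596 with a mean of at least 5 CPM and 0.0291 with the oocyte covariate. Neither was called under any of these. Rescaling TPM without mitochondrial-like genes gave 2654 higher and 1910 lower genes in place of 1824 and 2206, with the same 7 members called.

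With the replicate number as a block, 2891 genes and 5 members were called in the maturation window (Wwtr1 and Ccn2 were lost, and Yap1 was at -0.0472), 9298 genes and 8 members in the ovulation window, and 7268 genes and 7 members for the difference. In the maturation window 1 control of the 9 pairs correlated best with its own number, and in the ovulation window 0 of 11 did.

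Leaving out 1 library at a time gave 3586 to 4588 called genes and 5 to 8 members in the maturation window, and 9654 to 10029 genes and 8 to 9 members in the ovulation window. Yap1 in the maturation window ran from -0.0521 to 0.0458, negative without control replicate 11 (-0.0312) or PFNA replicate 10 (-0.0521). Lats2 in the ovulation window ran from -0.0402 to 0.0012, positive without control replicate 3 (0.0012) or 4 (0.00052). Ajuba, Amotl2 and Lats2 in the maturation window, and each called member of the ovulation window except Amotl1, kept direction and call under every alternative run. Tead1 had no value with a mean of at least 5 TPM. The depth behind TPM values is unknown, so the counting error of low levels such as those of Tead1 is unknown too.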
